A study of Mus musculus with 3 samples.

Results

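The genes described here are 38 genes of endothelial cells, the cells that line blood and lymph vessels, and of the endocardium, the sheet of endothelial cells that lines the chambers of the heart. They were chosen as a fixed list of gene names in 7 lists by role: pan-endothelial receptors (7 genes), pan-endothelial junction, surface and matrix genes (13), transcription factors (6), endocardial and venous genes (3), the apelin pair (2), capillary genes (4) and lymphatic genes (3). In the table of 48626 assembled loci, of which 20117 matched a RefSeq protein-coding transcript (mRNA loci), 37 of the 38 were found by gene name and Rgcc by its older symbol. Total RNA of heart ventricle from C57BL/6 mice (C57BL/6 J in the study's methods) was sequenced from embryos at E10.5 and E13.5 (embryonic days) and from 8-week adults, with 1 paired-end stranded library per stage. No genotype or treatment other than the strain is given in the labels, and the number of embryos or hearts behind a library is not given in the sources used here. Values are fpkm, that is fragment numbers scaled by exon length and by library size. Each value comes from a single library, so no difference between stages could be checked against replicates and p-values are absent.

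Endothelial cells receive the growth factor VEGF through Kdr and the angiopoietins through Tek, and hold together through junction proteins such as Cdh5 and Pecam1. In the embryonic heart the endocardium lines a thin trabeculated wall, its cells express Nfatc1 where the valves form, and part of the coronary vessels arises from it. In the adult ventricle a dense bed of capillaries surrounds the cardiomyocytes and takes up fatty acids for them, which needs the capillary surface protein Gpihbp1.

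The presence of heart muscle was checked with 6 cardiomyocyte genes (Tnnt2, Actn2, Myl2, Myl3, Actc1, Tnni3), whose lowest value was 256 (E10.5), 252 (E13.5) and 453 fpkm (adult). No atrial genes were read beside them, so this does not check ventricle against atrium. All 38 endothelial and endocardial loci were detected in all 3 libraries, and all 38 reached 1 fpkm in at least 1 library, as did 12569 of the mRNA loci. The median of the 38 was 16.4 (E10.5), 11.7 (E13.5) and 12.4 fpkm (adult), against medians of 9.92, 10.3 and 6.94 over the 12569 mRNA loci. Their summed level was 858, 769.9 and 748 fpkm as deposited and 801, 645 and 931 with median-of-ratios factors, so that the adult sum was the lowest under the first scaling and the highest under the second. Scaled without globin and mitochondrial loci, the sums were 918.5, 663.1 and 811, highest at E10.5 and lowest at E13.5. Single genes ranged from 0.0330 fpkm (Aqp7 at E13.5) to 148 fpkm (Ramp2 at E13.5). At E10.5, 6 of the 38 were below 1 fpkm (Apln, Aqp7, Sox17, Robo4, Gpihbp1 and Cldn5), at E13.5 only Aqp7 was, and in the adult none was. In bulk tissue, fewer cells of a type and less RNA per cell cannot be told apart.

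**Figure D1:**
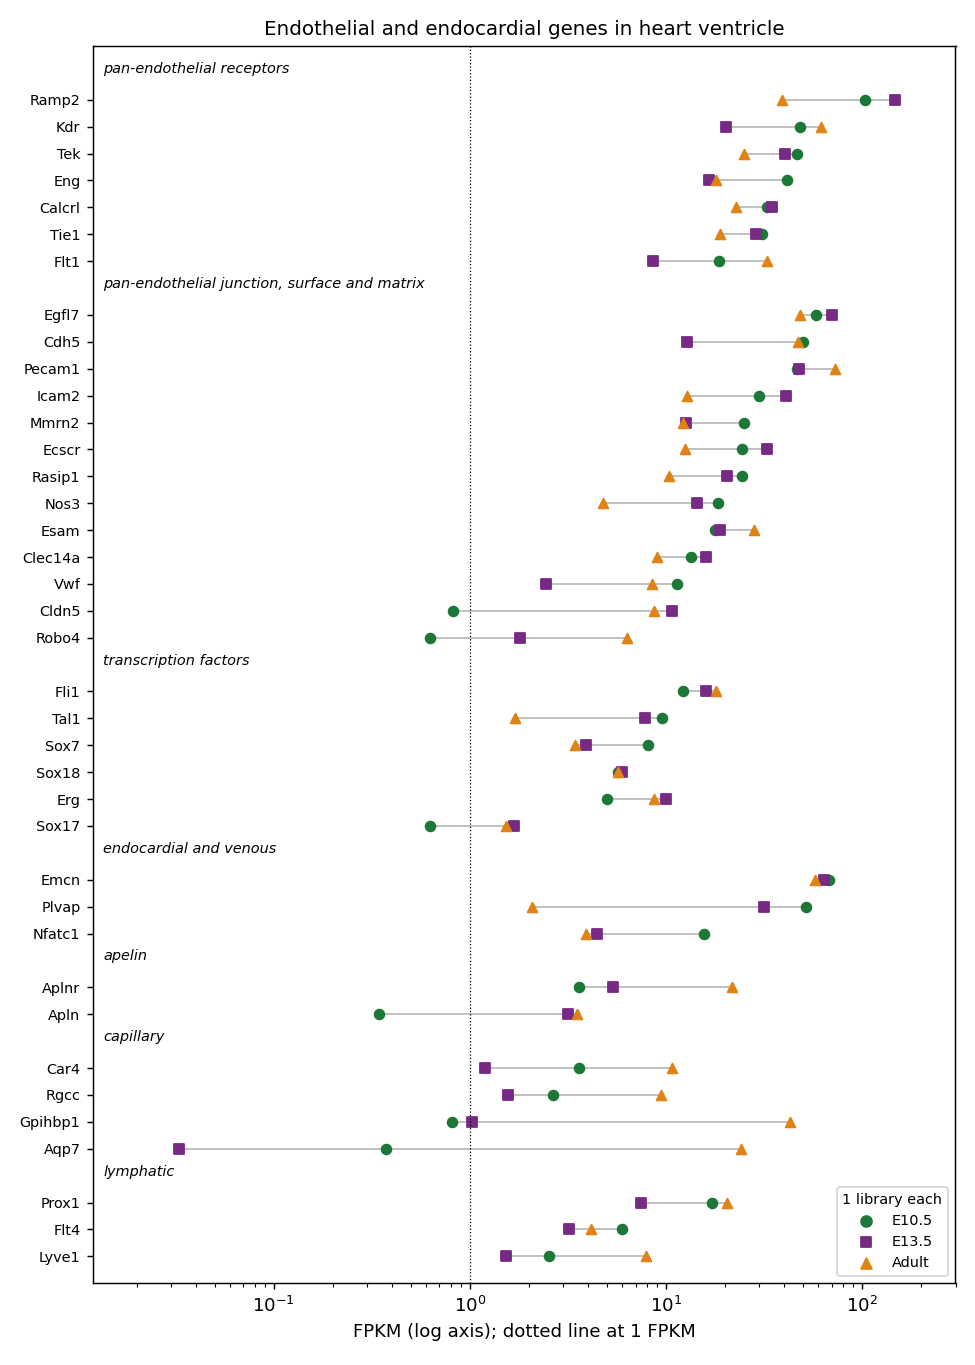
Level of each of the 38 genes in the 3 libraries, in fpkm on a log axis, with 1 point per library and the genes grouped by list. The 4 capillary genes have their adult points to the right of both embryonic points, and Plvap has its adult point far to the left, at 2.07 fpkm against 52.0 and 31.8 fpkm.

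Changes between stages were taken as differences of log2(fpkm + 1), and a difference of at least 1 was counted as higher or lower. From E10.5 to the adult, 9 of the 38 genes were higher (Apln, Aplnr, Aqp7, Car4, Cldn5, Gpihbp1, Lyve1, Rgcc and Robo4), where 14.8% of the mRNA loci were, and 9 were lower (Eng, Icam2, Nfatc1, Nos3, Plvap, Ramp2, Rasip1, Sox7 and Tal1), where 27.3% of the mRNA loci were. From E13.5 to the adult, 12 were higher (Aplnr, Aqp7, Car4, Cdh5, Flt1, Gpihbp1, Kdr, Lyve1, Prox1, Rgcc, Robo4 and Vwf), beside 13.0% of the mRNA loci, and 6 were lower (Ecscr, Icam2, Nos3, Plvap, Ramp2 and Tal1), beside 32.1%. Between the embryonic stages, 2 were higher at E13.5 (Apln and Cldn5), beside 5.89% of the mRNA loci, and 8 were lower (Car4, Cdh5, Eng, Flt1, Kdr, Nfatc1, Prox1 and Vwf), beside 4.85%. The median change of the 38 genes was -0.16 from E10.5 to the adult, -0.05 from E13.5 to the adult and -0.15 from E10.5 to E13.5, against -0.40, -0.50 and 0.17 over the mRNA loci. The scaling of the libraries moved these medians and the balance of the counts. Under median-of-ratios factors the medians of the 38 genes were 0.24, 0.46 and -0.3, in the same order of comparisons. Those of the mRNA loci were -0.055, -0.03 and 0.041. With median-of-ratios factors, the adult was higher than E10.5 for 13 genes and lower for 4, beside 20.0% and 18.4% of the mRNA loci, and higher than E13.5 for 14 and lower for 4, beside 20.8% and 18.9%. All 9 genes counted as higher from E10.5 to the adult were among the 13, and the 4 that remained lower were Nfatc1, Nos3, Plvap and Tal1.

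**Figure D2:**
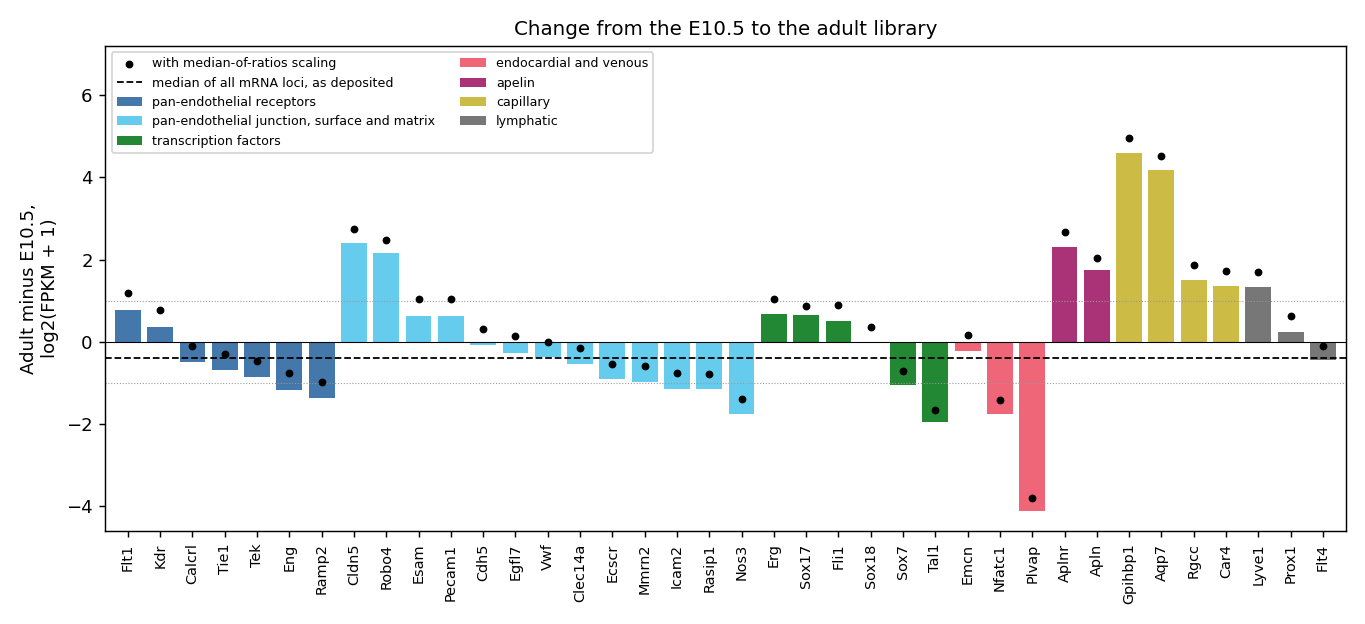
Change of each of the 38 genes from E10.5 to the adult as a difference of log2(fpkm + 1), with bars for the deposited scaling and dots for median-of-ratios scaling, coloured by list. Gpihbp1 (4.61) and Aqp7 (4.19) are the tallest bars and Plvap (-4.11) the lowest one.

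Among the pan-endothelial receptors the VEGF receptors were lowest at E13.5 and highest in the adult, while the other 5 were highest in an embryonic library. Kdr (chr5:75932835-75978481, minus strand), the main signalling receptor of VEGF, was at 48.1 (E10.5), 20.3 (E13.5) and 61.9 fpkm (adult). Flt1, a receptor that binds VEGF tightly and also exists as a soluble decoy, was at 18.7, 8.62 and 32.8 fpkm. Both genes thus had the same order of stages, and the ratio of Flt1 to Kdr was 0.388, 0.425 and 0.529. Tek, the receptor of the angiopoietins, was at 46.5, 40.4 and 25.0 fpkm. Tie1, its partner receptor, was at 30.8, 28.9 and 18.8 fpkm. The adult library was lowest for both, by -0.87 and -0.68 against E10.5 on the log2 scale, and neither difference reached 1. The ratio of Tie1 to Tek differed little between stages, at 0.662, 0.715 and 0.750.

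Eng (endoglin), a co-receptor of the TGF-beta and BMP family, was at 41.5 (E10.5), 16.6 (E13.5) and 18.0 fpkm (adult). Its 2 lower libraries were nearly level, so that the difference lay between E10.5 and the later stages (-1.27 to E13.5 and -1.17 to the adult). Calcrl and Ramp2 form the receptor of adrenomedullin, Ramp2 being the accessory protein. Calcrl was at 32.6, 35.0 and 22.9 fpkm. Ramp2 was at 103, 148 and 39.2 fpkm, the highest of the 38 genes in both embryonic libraries. The adult library was the lowest for both, with changes from E13.5 of -0.59 for Calcrl and -1.89 for Ramp2. The ratio of the accessory protein to the receptor went from 3.17 and 4.24 in the embryonic libraries to 1.71 in the adult. Ramp2 matched a transcript of only 872 nt, among the shortest of the list, and short transcripts read higher in the E13.5 library, as described below. Relative to mRNA loci of like length, its change was -0.05 from E10.5 to E13.5 and -0.92 from E13.5 to the adult. The second value also takes out the shift of mRNA loci of all lengths, whose median was -0.50 from E13.5 to the adult. With median-of-ratios factors and no length reading, the change of Ramp2 from E13.5 to the adult was -1.33.

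Of the 13 junction, surface and matrix genes, Pecam1 and Cdh5 are the most used markers of endothelium, and their values did not move together. Pecam1, a surface adhesion protein that platelets and leukocytes also carry, was at 46.5 (E10.5), 47.6 (E13.5) and 72.8 fpkm (adult), where it was the highest of the 38. Cdh5 (VE-cadherin, chr8:104101584-104144536, plus strand), the cadherin of endothelial junctions, was at 50.2, 12.9 and 47.2 fpkm. The E10.5 and adult values of Cdh5 were within -0.09 of each other on the log2 scale, and the E13.5 value lay -1.89 from E10.5. The ratio of Cdh5 to Pecam1 was 1.08, 0.270 and 0.648. Esam, an adhesion molecule of endothelial tight junctions, was at 17.8, 18.8 and 28.2 fpkm, with the order of stages of Pecam1, although its locus also holds transcripts of Vsig2. Icam2, an endothelial ligand of leukocyte integrins, was at 29.8, 41.2 and 12.9 fpkm. Its change from E13.5 to the adult was -1.60, or -1.06 with median-of-ratios factors and -0.80 relative to mRNA loci of like length. The 5 platelet genes examined beside these (Pf4, Itga2b, Gp1bb, Gp9 and Ppbp) summed to 23.8, 39.3 and 45.6 fpkm, with none at 0 in any library. From E10.5 to the adult 1 of them, Pf4, was higher by at least 1 and 2, Itga2b and Gp9, were lower by as much, and Pf4 (13.1, 21.6 and 37.6 fpkm) made up most of the adult sum. Their part in the values of Pecam1, Icam2 and Vwf was not tested.

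Of this list, Cldn5 and Robo4 were counted as higher from E10.5 to the adult. Cldn5 (claudin 5, chr16:18776847-18778262, plus strand), a protein that seals endothelial tight junctions, was at 0.818, 10.7 and 8.66 fpkm. Fragment numbers were estimated from the smallest steps between values, at about 13.8 (E10.5), 23.5 (E13.5) and 13.8 (adult) fragments for 1 fpkm over 1 kb. Cldn5 was low at E10.5 alone, on about 16 fragments, and the ratio of E13.5 to E10.5 was 13.1 (95% interval 7.94 to 23.1). Robo4, an endothelial receptor of the roundabout family that steadies vessel walls, was at 0.626, 1.80 and 6.32 fpkm. Robo4 thus stood highest in the adult, with an adult to E10.5 ratio of 10.1 (95% interval 6.99 to 15.0). Intervals of ratios here are exact (Clopper-Pearson) on approximate fragment numbers and cover counting error only, not the spread between animals.

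The remaining genes of this list were mostly highest in the embryo, as were most mRNA loci (26.8% at E10.5 and 46.7% at E13.5). Ecscr, a small surface protein of endothelial cells, was at 24.5, 32.9 and 12.5 fpkm. Clec14a, a lectin-like surface protein, was at 13.48, 16.0 and 9.03 fpkm. Both had their highest value at E13.5 and their lowest in the adult. Mmrn2, a matrix protein that binds Clec14a, was at 25.1, 12.6 and 12.3 fpkm, level between E13.5 and the adult (-0.04). Rasip1, a regulator of Ras-family signalling needed for vessel lumens, was at 24.5, 20.5 and 10.4 fpkm in a locus that also holds Izumo1. Nos3, the endothelial nitric oxide synthase, was at 18.4, 14.4 and 4.77 fpkm. Both were lowest in the adult, by -1.16 for Rasip1 and -1.75 for Nos3 against E10.5. Vwf, the clotting factor stored in endothelial cells and in platelets, was at 11.4, 2.44 and 8.54 fpkm. Vwf was low at E13.5 alone, a change of -1.85 from E10.5.

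Egfl7, a secreted protein of endothelial matrix, was at 58.4 (E10.5), 70.1 (E13.5) and 48.3 fpkm (adult), and no difference between stages reached 1. It is known as the host gene of the endothelial microRNA miR-126, whose mature RNA these libraries of long transcripts do not measure. The sequence is shown because its position ties it to this gene. In RefSeq on GRCm38.p6 the mature 3p arm lies at chr2:26591402-26591423 on the plus strand, inside an intron of all 5 assembled Egfl7 transcripts that span it. It is printed 5′ to 3′, with the seed (bases 2 to 8) in capitals.
mmu-miR-126a-3p: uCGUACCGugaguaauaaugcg

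The 6 transcription factors were expressed at moderate levels, from 0.623 to 18.0 fpkm, and none was counted as higher at a later stage. Sox7, Sox17 and Sox18 are the SoxF factors of endothelium. Sox7 was at 8.15, 3.92 and 3.45 fpkm. Sox17, which is found mostly in arterial endothelium and in embryonic endocardium, was at 0.623, 1.68 and 1.54 fpkm. Sox18 was at 5.73, 5.96 and 5.70 fpkm. The order of the 3 SoxF genes therefore differed between stages, with Sox7 above Sox18 at E10.5 (ratio 1.42) and below it at E13.5 and in the adult (0.657 and 0.605), and with Sox17 lowest at each stage. Erg and Fli1 are ETS factors that maintain endothelial identity. Erg was at 5.03, 10.1 and 8.68 fpkm. Fli1, which blood cells also express, was at 12.3, 16.1 and 18.0 fpkm, the highest of the 6 factors in every library. Neither reached a difference of 1 between any stages under the deposited scaling, and Erg reached 1.05 from E10.5 to the adult with median-of-ratios factors.

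Tal1, a factor of blood and endothelial progenitors that also works in red cell precursors, was at 9.51 (E10.5), 7.78 (E13.5) and 1.70 fpkm (adult). It had the largest fall of the 6 factors from E10.5 to the adult, a change of -1.96, beside -1.04 for Sox7. The ratio of Tal1 to Fli1 went from 0.774 to 0.485 and 0.0947. Of the 4 erythroid genes examined beside it (Gata1, Klf1, Hbb-bh1 and Alas2), 3 were lower by at least 1 in the adult against E10.5 and none was higher by that much. They summed to 1339, 403 and 19.8 fpkm with none at 0 in any library. The embryonic sums were mostly Hbb-bh1 (1314 and 366 fpkm) and the adult sum mostly Alas2, which was at 18.2, 34.1 and 19.6 fpkm. The part of erythroid cells in the value of Tal1 was not tested.

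The endocardial and venous genes ranged from Plvap, the gene of the 38 that was lowest in the adult against E10.5, to Emcn, which was nearly even as deposited. Plvap (chr8:71497635-71511769, minus strand), which forms the diaphragms of fenestrae and caveolae in endothelium, was at 52.0 (E10.5), 31.8 (E13.5) and 2.07 fpkm (adult). The adult library was the low one, on about 58 fragments, and the E10.5 value was 25.1 times the adult value (adult to E10.5 ratio 0.0399, 95% interval 0.0303 to 0.0522). Only 1.1% of the mRNA loci had a change from E10.5 to the adult as low as that of Plvap. Nfatc1, the factor of valve-forming endocardium that also works in lymphocytes and bone cells, was at 15.6, 4.44 and 3.93 fpkm. Here the difference lay between E10.5 and the later libraries, with a change of -1.61 from E10.5 to E13.5 and -0.14 from E13.5 to the adult. Emcn (endomucin), a surface glycoprotein of capillary, venous and endocardial cells, was at 68.3, 63.8 and 57.8 fpkm. As deposited, Emcn was among the most even of the 38 genes, with no change beyond -0.24. Relative to mRNA loci of like length, its change was -0.575 from E10.5 to E13.5 and 0.669 from E13.5 to the adult. The latter was 0.42 with median-of-ratios factors. Set against Pecam1, which was higher in the adult, the ratio of Emcn was 1.47, 1.34 and 0.794, that of Plvap 1.12, 0.668 and 0.0285, and that of Nfatc1 0.336, 0.0933 and 0.0540.

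Of the apelin pair, Apln, the peptide ligand made by sprouting endothelial tip cells, was at 0.344 (E10.5), 3.16 (E13.5) and 3.53 fpkm (adult). Aplnr, its receptor, was at 3.61, 5.35 and 21.7 fpkm. Both were lowest at E10.5 and highest in the adult, but at different steps, since Apln differed between E10.5 and E13.5 (1.63) and Aplnr between E13.5 and the adult (1.84). The E10.5 value of Apln rests on about 15 fragments, with an adult to E10.5 ratio of 10.3 (95% interval 5.99 to 18.7). The level of the receptor was 10.51, 1.69 and 6.15 times that of the ligand.

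The 4 capillary genes were the one list in which every member was counted as higher in both comparisons with the adult, and their median change was 2.85 from E10.5 and 3.43 from E13.5. Gpihbp1 (chr15:75594950-75598321, plus strand), which binds lipoprotein lipase and carries it to the capillary lumen, was at 0.806, 1.02 and 43.0 fpkm. Aqp7 (chr4:41033074-41048165, minus strand), a channel for glycerol and water, was at 0.373, 0.0330 and 24.1 fpkm. Both were near the floor of the embryonic libraries and well expressed in the adult. The embryonic values rest on about 9 and 19 fragments for Gpihbp1 and about 13 and 2 for Aqp7, against 473 and 839 in the adult. The adult to E10.5 ratio was 53.3 (95% interval 27.5 to 116) for Gpihbp1 and 64.6 (37.5 to 122) for Aqp7. Car4, a carbonic anhydrase anchored on the capillary surface, was at 3.61, 1.19 and 10.7 fpkm. Rgcc, a regulator of the cell cycle expressed in capillary endothelium, was at 2.67, 1.56 and 9.44 fpkm. These 2 genes were lowest at E13.5, and their changes from E10.5 to the adult were 1.34 and 1.51.

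Since Aqp7 is also known from fat cells, 4 adipocyte genes were examined beside it. Adipoq, Plin1, Lep and Cfd summed to 0.640, 0.237 and 0.505 fpkm, and Plin1 was listed at 0 in all 3 libraries and Lep at E10.5. Fabp4, a fatty acid carrier of both capillary endothelium and fat cells, was at 638 fpkm in the adult. The adult values of the 4 adipocyte genes were thus between 0 and 0.297 fpkm beside 24.1 fpkm of Aqp7, and the part of fat cells in the value of Aqp7 was not tested. Relative to Pecam1, Gpihbp1 was at 0.0173, 0.0215 and 0.591, Aqp7 at 0.00802, 0.000693 and 0.331, Car4 at 0.0775, 0.0250 and 0.147, and Rgcc at 0.0574, 0.0329 and 0.130. The 6 mural genes examined (Pdgfrb, Rgs5, Kcnj8, Abcc9, Cspg4 and Notch3), which mark the pericytes and smooth muscle around vessels, summed to 92.5, 84.4 and 374 fpkm, with none at 0. In the adult 5 of the 6 were above their E10.5 value, 2 of them (Rgs5 and Kcnj8) by at least 1, and Cspg4 was lower by at least 1. Most of the adult sum was Rgs5, at 239.8 fpkm, and the part of these cells in the capillary values was not tested.

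**Figure D3:**
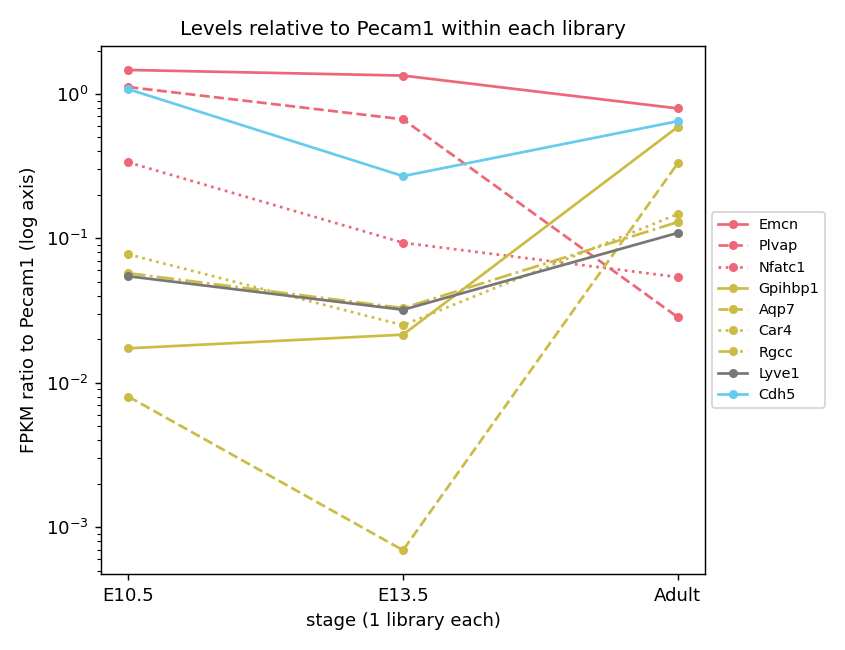
Ratio of the fpkm of 9 genes to that of Pecam1 in each of the 3 libraries, on a log axis, with 1 line per gene. Plvap goes from 1.12 at E10.5 to 0.0285 in the adult, while Gpihbp1 goes from 0.0173 to 0.591.

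Of the 3 lymphatic genes, Lyve1, a hyaluronan receptor of lymphatic endothelium and of resident macrophages, was at 2.54, 1.52 and 7.94 fpkm. Prox1, the factor that sets lymphatic identity and is also expressed in cardiomyocytes, was at 17.2, 7.49 and 20.5 fpkm. Flt4, the receptor of VEGF-C, was at 5.99, 3.19 and 4.14 fpkm. All 3 were lowest at E13.5, and Lyve1 alone was counted as higher from E10.5 to the adult (1.33). The ratio of Flt4 to Kdr was 0.124, 0.157 and 0.0668. The 7 macrophage genes examined beside Lyve1 (Csf1r, Adgre1, Cd68, C1qa, C1qb, Mrc1 and Cd163) summed to 7.42, 54.9 and 179 fpkm, with none at 0, and all 7 had a higher adult value against E10.5. Between E10.5 and E13.5 the macrophage sum was higher while Lyve1 was lower, and the part of macrophages in the adult value of Lyve1 was not tested. The other lymphatic genes found (Pdpn, Reln and Mmrn1) summed to 10.2, 19.8 and 17.6 fpkm, with 1 of 3, Mmrn1, higher from E10.5 to the adult.

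Transcript length moved with the values of the E13.5 library and was followed for all mRNA loci. From E10.5 to E13.5, the median change was 0.56 over 818 loci of up to 1000 nt and -0.53 over 930 loci longer than 7000 nt. From E10.5 to the adult the same classes had medians of -0.39 and -0.37. Across the 12569 mRNA loci, Pearson's r between change and log2 of length was -0.45 from E10.5 to E13.5, 0.20 from E13.5 to the adult and 0.00 from E10.5 to the adult. Across the 38 genes it was -0.44, 0.04 and -0.21. These are descriptions across loci of the same libraries, and genes are not independent replicates.

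**Figure D4:**
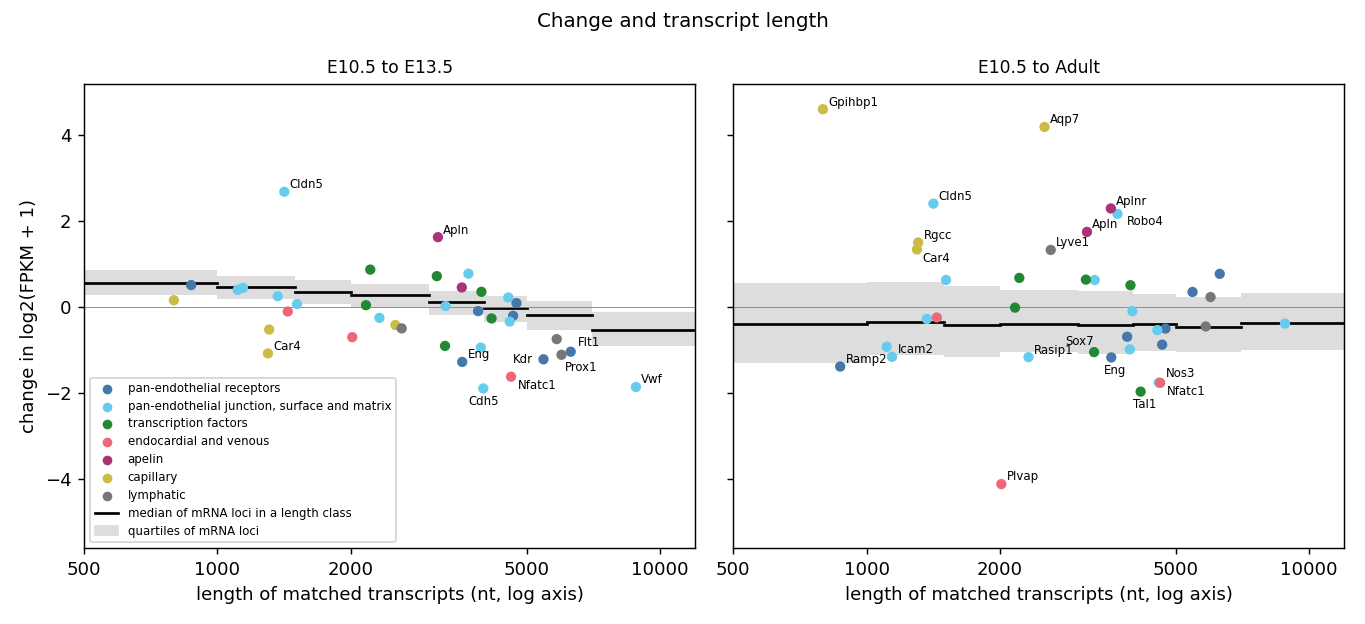
Change in log2(fpkm + 1) against the length of the matched transcripts in nt (log axis), from E10.5 to E13.5 (left) and from E10.5 to the adult (right). Points are the 38 genes coloured by list, and the line and band are the median and quartiles of the mRNA loci in 8 length classes, which go down with length on the left (0.56 to -0.53) and are flat on the right.

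Several long transcripts of the list were low at E13.5 alone, so each change was also read against the median of mRNA loci in its length class. Lower by at least 1 from E10.5 to E13.5 and higher by at least 1 from E13.5 to the adult were 6 of the 38 genes (15.8%), Car4, Cdh5, Flt1, Kdr, Prox1 and Vwf, beside 141 of the mRNA loci (1.12%). After the length reading 4 of the 38 remained, Car4, Cdh5, Kdr and Vwf, beside 218 of the mRNA loci (1.73%). Against loci of like length, the change from E10.5 to E13.5 was -2.004 for Cdh5, -1.32 for Vwf, -1.04 for Kdr and -1.55 for Car4, while Flt1 (-0.86) and Prox1 (-0.93) came inside the limit of 1. Of the 8 genes counted as lower from E10.5 to E13.5 as deposited, 6 were also lower after the length reading. Mmrn2 (-1.06) and Sox7 (-1.015) passed the limit only after it, so the count stayed at 8. The share of mRNA loci lower by at least 1 after the length reading is not given here. Cldn5 and Apln stayed the 2 higher genes, at 2.21 and 1.51.

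To place the 38 genes among others of their pathways, a list of 44 further genes was read in the same way, and all 44 were found and reached 1 fpkm in at least 1 library. The adult was higher than E10.5 for 9 of them and lower for 13, and higher than E13.5 for 11 and lower for 12, while E13.5 was higher than E10.5 for 3 and lower for 4. From E10.5 to the adult these were 20.5% and 29.5% of the 44, beside 14.8% and 27.3% of the mRNA loci, and from E13.5 to the adult 25.0% and 27.3%, beside 13.0% and 32.1%. From E10.5 to E13.5 they were 6.8% and 9.1%, beside 5.89% and 4.85%. Of the 6 genes of adult capillaries and lipid supply, 5 were higher from E10.5 to the adult. Cd36, the fatty acid uptake protein of capillaries and cardiomyocytes, was at 39.3, 34.7 and 1226 fpkm. Fabp4, the fatty acid carrier named above, was at 12.7, 17.9 and 638 fpkm. Lpl, the lipase that Gpihbp1 carries, was at 82.8, 13.3 and 1116 fpkm. The lipase was thus expressed at E10.5, where Gpihbp1 was below 1 fpkm. Meox2 and Tcf15, factors of heart capillary endothelium, were below 1 fpkm at E10.5 (0.348 and 0.520) and at 9.39 and 10.1 fpkm in the adult. Fabp5 went the other way, at 33.8, 66.4 and 5.65 fpkm.

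The counts of the single lists from E10.5 to the adult are as deposited, read beside the same 14.8% higher and 27.3% lower of the mRNA loci. They rest on few genes. Among the VEGF and angiopoietin genes the adult was higher than E10.5 for 2 of 10 (20.0%) and lower for 1 (10.0%). Vegfa, the ligand of Kdr and Flt1, was at 30.0, 26.8 and 75.3 fpkm, so ligand and both receptors were highest in the adult. Ptprb, the phosphatase that restrains Tek, was at 7.72, 5.49 and 36.7 fpkm, whereas Tek and its ligand Angpt1 (60.2, 29.9 and 27.6 fpkm) were highest at E10.5. Of the 9 Notch and arteriovenous genes 5 were lower (55.6%) and none was higher, with Hey2, a Notch target also made by ventricular cardiomyocytes, at 43.1, 73.2 and 5.38 fpkm. With median-of-ratios factors, Jag1 (-0.812) and Efnb2 (-0.895) among these were no longer lower by at least 1. Of the 11 factors 4 were lower (36.4%) and none was higher. They were Etv2, the early factor of endothelial fate, with 1.92 and 0.419 fpkm in the embryonic libraries and an adult value listed at 0, Lyl1, a relative of Tal1, at 6.96, 7.24 and 1.64 fpkm, and the forkhead factors Foxc1 and Foxc2. Of the 8 further endothelial genes, the receptors Adgrl4 (6.67, 6.15 and 57.6 fpkm) and Adgrf5 (8.43, 4.24 and 40.8 fpkm) were higher and Npr3 and Nrg1 lower. Npr3, a natriuretic peptide receptor of the endocardium, was at 86.1, 50.4 and 1.82 fpkm, and Nrg1, the growth factor that the endocardium sends to the myocardium, at 7.77, 2.20 and 0.224 fpkm. Both followed the order of stages of Plvap and Nfatc1.

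Promoters were read where RefSeq windows on GRCm38.p6 were given, from 250 bases before to 50 after a gene start, and 20 of the 38 genes had one. The motif GGAAG, only 1 form of the sites that ETS factors such as Erg and Fli1 bind, was searched on both strands. It was present in 17 of the 20 windows (85.0%), against 71.4% of all 32851 windows. The longer form CCGGAAG, which contains it, was in 5.0% of the 20 windows and in 8.86% of all. On both strands, the GATA factor motif AGATAA was in 10.0% against 11.2%. The SOX core ACAAT was in 25.0% against 31.0% and the TATA box TATAAA in 20.0% against 13.6%. The KLF motif CACCC was in 70.0% against 57.5%. Each share of the 20 thus lay within a few windows of the general share. The windows printed are those of Aqp7, Cldn5 and Robo4, the 3 genes with the largest change from E10.5 to the adult among those with a window, and of Tie1, which held the most GGAAG matches. They are given 5′ to 3′ on the strand of the gene, with GGAAG, or CTTCC where the match is on the other strand, in capitals. Aqp7 (chr4:41048087-41048386, minus strand) and Cldn5 (chr16:18776597-18776896, plus strand) held no match, Robo4 (chr9:37401722-37402021, plus strand) held 3 and Tie1 (chr4:118489800-118490099, minus strand) held 7. A match is a description of letters, and no match says only that these letters are not in the window.
Aqp7: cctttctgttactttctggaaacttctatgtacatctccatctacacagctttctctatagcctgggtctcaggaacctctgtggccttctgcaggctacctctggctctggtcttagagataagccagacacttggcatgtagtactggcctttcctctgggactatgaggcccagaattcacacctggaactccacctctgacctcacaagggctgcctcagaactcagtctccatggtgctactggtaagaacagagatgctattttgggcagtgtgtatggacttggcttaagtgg
Cldn5: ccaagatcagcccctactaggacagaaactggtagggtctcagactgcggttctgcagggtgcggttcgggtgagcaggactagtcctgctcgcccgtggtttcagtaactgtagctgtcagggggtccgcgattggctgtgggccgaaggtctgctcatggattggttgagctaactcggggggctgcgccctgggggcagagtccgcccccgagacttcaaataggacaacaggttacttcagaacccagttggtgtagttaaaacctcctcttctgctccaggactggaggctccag
Robo4: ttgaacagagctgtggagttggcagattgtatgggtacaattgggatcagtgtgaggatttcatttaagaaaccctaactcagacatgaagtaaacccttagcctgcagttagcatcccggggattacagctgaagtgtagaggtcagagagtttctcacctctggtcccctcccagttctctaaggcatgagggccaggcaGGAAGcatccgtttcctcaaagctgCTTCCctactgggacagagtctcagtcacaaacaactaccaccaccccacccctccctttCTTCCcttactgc
Tie1: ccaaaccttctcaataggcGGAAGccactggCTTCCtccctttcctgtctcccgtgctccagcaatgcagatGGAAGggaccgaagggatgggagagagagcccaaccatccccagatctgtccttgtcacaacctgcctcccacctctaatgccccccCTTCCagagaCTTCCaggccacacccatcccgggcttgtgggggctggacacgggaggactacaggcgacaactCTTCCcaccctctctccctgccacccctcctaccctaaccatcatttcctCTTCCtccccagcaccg

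Unspliced loci on the opposite strand were found within 3000 bp of the starts of 5 of the 38 genes (Ramp2, Cdh5, Sox7, Fli1 and Prox1). Others overlapped 3 of the 38, lying inside Rasip1 and partly over the 3′ ends of Mmrn2 and Plvap. Such loci were not counted over all mRNA loci, so these counts cannot be called many or few. The highest of them was that at Mmrn2, at 2.43, 0.171 and 0.994 fpkm on about 30, 4 and 12 fragments. The locus 250 bp from the start of Fli1 was at 0.265, 1.20 and 0.468 fpkm and that 831 bp from the start of Cdh5 at 0.0819, 0.0464 and 0.655 fpkm. At these few fragments no order of stages was read from them. The opposite-strand locus at the 3′ end of Plvap stayed between 0.332 and 0.602 fpkm, while Plvap itself went from 52.0 to 2.07 fpkm.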

How the data were processed

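The authors mapped paired-end reads of total RNA from 3 ventricle libraries to mm10 (GRCm38) with TopHat2 and Bowtie and assembled them with Cufflinks, both with a UCSC annotation and without one. Minor versions, further options and the treatment of multiply mapped fragments, are not given in the sources used here. The deposited values are FPKM per merged locus and library, with a deposited transcript annotation. Of 416 introns of the members' matched transcripts, 415 were in GENCODE M21. Changes are differences of log2(FPKM + 1), which understates low genes, counted from 1 over mRNA loci that reach 1 FPKM in some library. With 1 library per stage no test was made. The lowest repeated step of FPKM times length in single unspliced loci was taken as 1 fragment, which puts about 13.8 (E10.5), 23.5 (E13.5) and 13.8 (adult) fragments behind 1 FPKM over 1 kb. The adult step is diffuse, so fragment numbers and the 95% Clopper-Pearson intervals built on them are approximate. Esam and Rasip1 lie in loci joined with another gene. All 38 members are named. Further genes come from the pathway and marker lists, and the pathway genes given with values are those with the largest differences or a direct partner among the members. The members, lists and examples were chosen with earlier results of these data known. Alternatives were another scaling (median of ratios, or without globin and mitochondrial loci), pseudocount 0.1, no filter, a limit of 2, leaving out joined loci or members other cells express, and, chosen after seeing the data, a length reading in 8 classes and members found by name only. The change and length steps were tested on simulated data. The marker Ccl21a was not found by name and is not analysed here, and 1 erythroid marker is not reported here. Python 3.11.15, numpy 2.4.6, pandas 2.3.3, scipy 1.17.1 and matplotlib 3.10.9 were used.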

Additional observations from a re-analysis of the deposited data

How the results depend on the processing

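No paired analysis was possible because only 1 library stands for every stage. The 6 counts and 21 list medians took 216 values under the alternatives tried. Of these, 191 moved little (counts by at most 1.5 times) and 25 moved further. No list median of at least 1 in size changed sign, but 6 smaller ones did in 14 of their values. From E13.5 to the adult, the medians as deposited of the junction, surface and matrix genes (-0.28), the transcription factors (-0.11) and the endocardial and venous genes (-0.14) were 0.24, 0.31 and 0.32 with median-of-ratios factors, and all 3 were also above 0 without globin and mitochondrial loci and relative to loci of like length. From E10.5 to E13.5, the median of the junction, surface and matrix genes (0.08) was below 0 under the same 3 alternatives, and that of the transcription factors (0.20) was -0.07 without globin and mitochondrial loci. With median-of-ratios scaling, 4 genes were lower from E10.5 to the adult. With pseudocount 0.1, 4 genes were higher from E10.5 to E13.5, beside 10.2% of the mRNA loci, the apelin median was 1.72 to E13.5 and 2.79 from E10.5 to the adult, and the capillary medians were -1.13 (E10.5 to E13.5), 4.16 (E13.5 to adult) and 3.68 (E10.5 to adult). Counted from 2, 1 gene was higher and 0 lower from E10.5 to E13.5, 4 and 1 from E13.5 to the adult, and 5 and 1 from E10.5 to the adult, beside 0.851% and 0.247%, 4.41% and 9.88%, and 5.59% and 8.1% of the mRNA loci. Without members that other cells express, the medians from E13.5 to the adult were -1.78 (endocardial and venous), 2.42 (capillary) and 0.29 (lymphatic), and from E10.5 to the adult 1.51 (capillary) and -0.45 (lymphatic, against 0.24 with all 3 genes). These lists left out Nfatc1, Aqp7, Lyve1 and Prox1. The lymphatic values are therefore those of Flt4 alone, and the endocardial and venous value is that of Emcn and Plvap. Relative to mRNA loci of like length, an alternative chosen after seeing the data, 3 genes (Nos3, Plvap and Tal1) were lower from E13.5 to the adult, the junction, surface and matrix median was 0.46 (against -0.28) and the capillary median 4.24 in that comparison, and the adult was higher than E10.5 for 14 genes and lower for 4. The length reading sets the median of each length class to 0, so it also takes out changes shared by loci of all lengths. Shares of the mRNA loci under it are not given here, so these counts have no general share beside them. With members found by name only, also chosen after seeing the data, the capillary median was 4.44 from E13.5 and 4.19 from E10.5 to the adult. The cause of these differences was not tested, beyond the smaller lists that 2 of the alternatives leave. With 1 library per stage, the spread between animals is unknown, and values under about 1 FPKM rest on few fragments.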
